A study of Mus musculus with 3 samples.

Results

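Ly6a, Ly6c1, Ly6c2, Ly6d, Ly6e, Ly6g and Ly6i, genes of the Ly6 family of small surface proteins, were followed across the cell classes of 3 single-cell RNA libraries from mouse aortas. They are 7 of the 32285 genes in the deposited tables, taken by symbol, and they were chosen by levels already seen in these same libraries, so their levels and differences are given as a description. All cells were live CD45+ cells sorted from whole aortas, adventitia included, of mice labelled ApoE-/- (C57BL/6J), a strain without apolipoprotein E that is a standard model of atherosclerosis. The Apoe counts of the library labelled HHcy, given below with the depths, go against that label. The control library had no listed treatment, the library labelled HHcy came from animals that drank water with homocysteine (Hcy; 1.8 g/L) over 4 weeks, and the library labelled WD came from animals fed a western diet for 4 weeks. Age, sex and the number of animals pooled are not given in the sources used here. Each group is 1 library, so no difference between groups has a replicate check and no p-value is given.

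Ly6 proteins are held on the outer cell membrane by a glycosylphosphatidylinositol (GPI) anchor and share the compact, disulfide-bonded LU fold. Several of the genes are induced by interferon, and immunologists know them best as surface markers: Ly6a encodes Sca-1, used for blood stem cells and stromal progenitors; Ly6c1 and Ly6c2 encode the Ly6C antigens, of which the Ly6c2 product marks inflammatory monocytes; Ly6g encodes the neutrophil antigen Ly6G; and Ly6d encodes ThB, an antigen of the B lineage. Ly6e encodes a widely expressed interferon-inducible member. In aortic disease these antigens are used to sort monocytes, neutrophils and adventitial progenitor cells.

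The members lie together on mouse chromosome 15 (GRCm38, GENCODE M21), within 397 kb that run from 74762056 to 75159126. From the low end of that interval, Ly6d occupies 74762056 to 74763620 on the minus strand, Ly6e 74955051 to 74959905 on the plus strand, and Ly6i 74979534 to 74983430 on the minus strand. Ly6a follows at 74994877 to 74998031, Ly6c1 at 75044018 to 75048830 and Ly6c2 at 75108158 to 75111970, all on the minus strand, and Ly6g closes the interval at 75155240 to 75159126 on the plus strand. The annotation has 8 Ly6 genes inside it, and all members are protein-coding. Kits of the type used read the 3′ ends of transcripts, and the last 500 bases of the Ly6c1 and Ly6c2 transcripts were 96.8% identical. Of 411 windows of 90 bases there, 35 (8.52%) were found in both, and reads from those windows cannot be told apart, which limits low values of either gene beside high values of the other. Ly6a and Ly6i were 86.7% identical over the same stretch and shared no such window.

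RefSeq promoter entries (GRCm38.p6) were found for 3 members, Ly6c1, Ly6c2 and Ly6g. They are shown because these near neighbours have related upstream sequence but were highest in different cells. Among the groups with at least 20 cells in every library, these were fibroblasts, classical monocyte-like cells and neutrophils. Each runs 5′ to 3′ on the gene's own strand, and capitals mark stretches of at least 10 bases found in all 3. Stretches that overlap are printed as a single run. The run holding TATAAA in Ly6c1 and Ly6g is split by a lower-case c in Ly6c2, so it is not shared whole. Ly6c1 covers chr15:75048838-75049087 (minus strand), Ly6c2 chr15:75111972-75112221 (minus strand) and Ly6g chr15:75155011-75155239 (plus strand).

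Ly6c1: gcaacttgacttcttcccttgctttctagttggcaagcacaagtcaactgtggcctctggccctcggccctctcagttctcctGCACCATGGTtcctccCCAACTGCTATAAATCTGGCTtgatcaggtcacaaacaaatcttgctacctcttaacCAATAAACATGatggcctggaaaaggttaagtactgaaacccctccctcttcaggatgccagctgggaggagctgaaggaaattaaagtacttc

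Ly6c2: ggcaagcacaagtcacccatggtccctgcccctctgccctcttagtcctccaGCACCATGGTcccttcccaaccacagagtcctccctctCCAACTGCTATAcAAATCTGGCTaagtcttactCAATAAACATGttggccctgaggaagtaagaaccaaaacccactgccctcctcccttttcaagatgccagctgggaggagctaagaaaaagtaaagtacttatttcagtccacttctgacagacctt

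Ly6g: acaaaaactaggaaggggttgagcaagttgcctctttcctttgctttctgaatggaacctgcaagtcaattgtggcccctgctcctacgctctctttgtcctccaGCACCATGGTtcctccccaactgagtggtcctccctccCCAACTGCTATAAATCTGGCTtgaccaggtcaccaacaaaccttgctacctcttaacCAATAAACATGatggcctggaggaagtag

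Where the windows overlap when aligned, Ly6c1 and Ly6c2 were 71.9% identical, Ly6c1 and Ly6g 74.1%, and Ly6c2 and Ly6g 67.0%. The letters TATAAA, searched on both strands, were found in the Ly6c1 window, 143 bases before the RefSeq start, and in the Ly6g window, 99 bases before it. The Ly6c2 window has no TATAAA, and 12.4% of 32851 RefSeq promoters hold these letters. GAGGAAGT, a core of the sites bound by the myeloid factor PU.1, was found once in the Ly6c2 and Ly6g windows and not in that of Ly6c1 (2.44% of promoters hold it). TTGCNNAA, a C/EBP core, was found in the Ly6g window (9.56% of promoters). The core of the interferon response element, GAAA, then 2 bases of any kind, then GAAA (2.98% of promoters), and TTCNNNGAA, the interferon gamma activated site (7.02%), were found in none of the 3. These matches describe the letters in the windows and nothing about binding.

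The deposited tables held 7512 control, 9753 HHcy-labelled and 8557 WD barcodes, with 66789257, 105180370 and 93164076 molecules (UMIs, unique molecular identifiers). After filters on quality and on cells with markers of several lineages, 5414, 6450 and 5326 cells were used, and 20 to 24 barcodes were shared by each pair of libraries. Over all barcodes Apoe stood at 16.3, 374 and 19.3 counts per 1000000 UMIs (CPM), so the library labelled HHcy stood apart from the other 2. Its name is therefore given as a label only, and that doubt touches each difference that involves it. Cells were grouped without using any Ly6 gene. There were 2119, 1348 and 2840 macrophages and monocytes, 2193, 3672 and 1232 B cells, 197, 418 and 256 neutrophils, 406, 248 and 336 conventional dendritic cells, 136, 206 and 145 T cells, and 29, 41 and 36 group 2 innate lymphoid cells (ILC2), in the order control, HHcy-labelled and WD, as throughout. The sort also passed 30, 85 and 173 fibroblasts, whose 10 fibroblast markers summed to 53400, 47600 and 43200 CPM, and 9, 19 and 33 endothelial cells. Ptprc, which encodes CD45, stood at 27.6, 20.1 and 21.1 CPM in those fibroblasts against 912, 811 and 658 CPM in macrophages and monocytes. Levels are the UMIs of a gene summed over a class divided by all UMIs of that class and scaled to CPM, with exact Poisson 95% intervals. Intervals here cover counting error only, and a level cannot separate more cells with the transcript from more transcript in each.

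**Figure D1:**
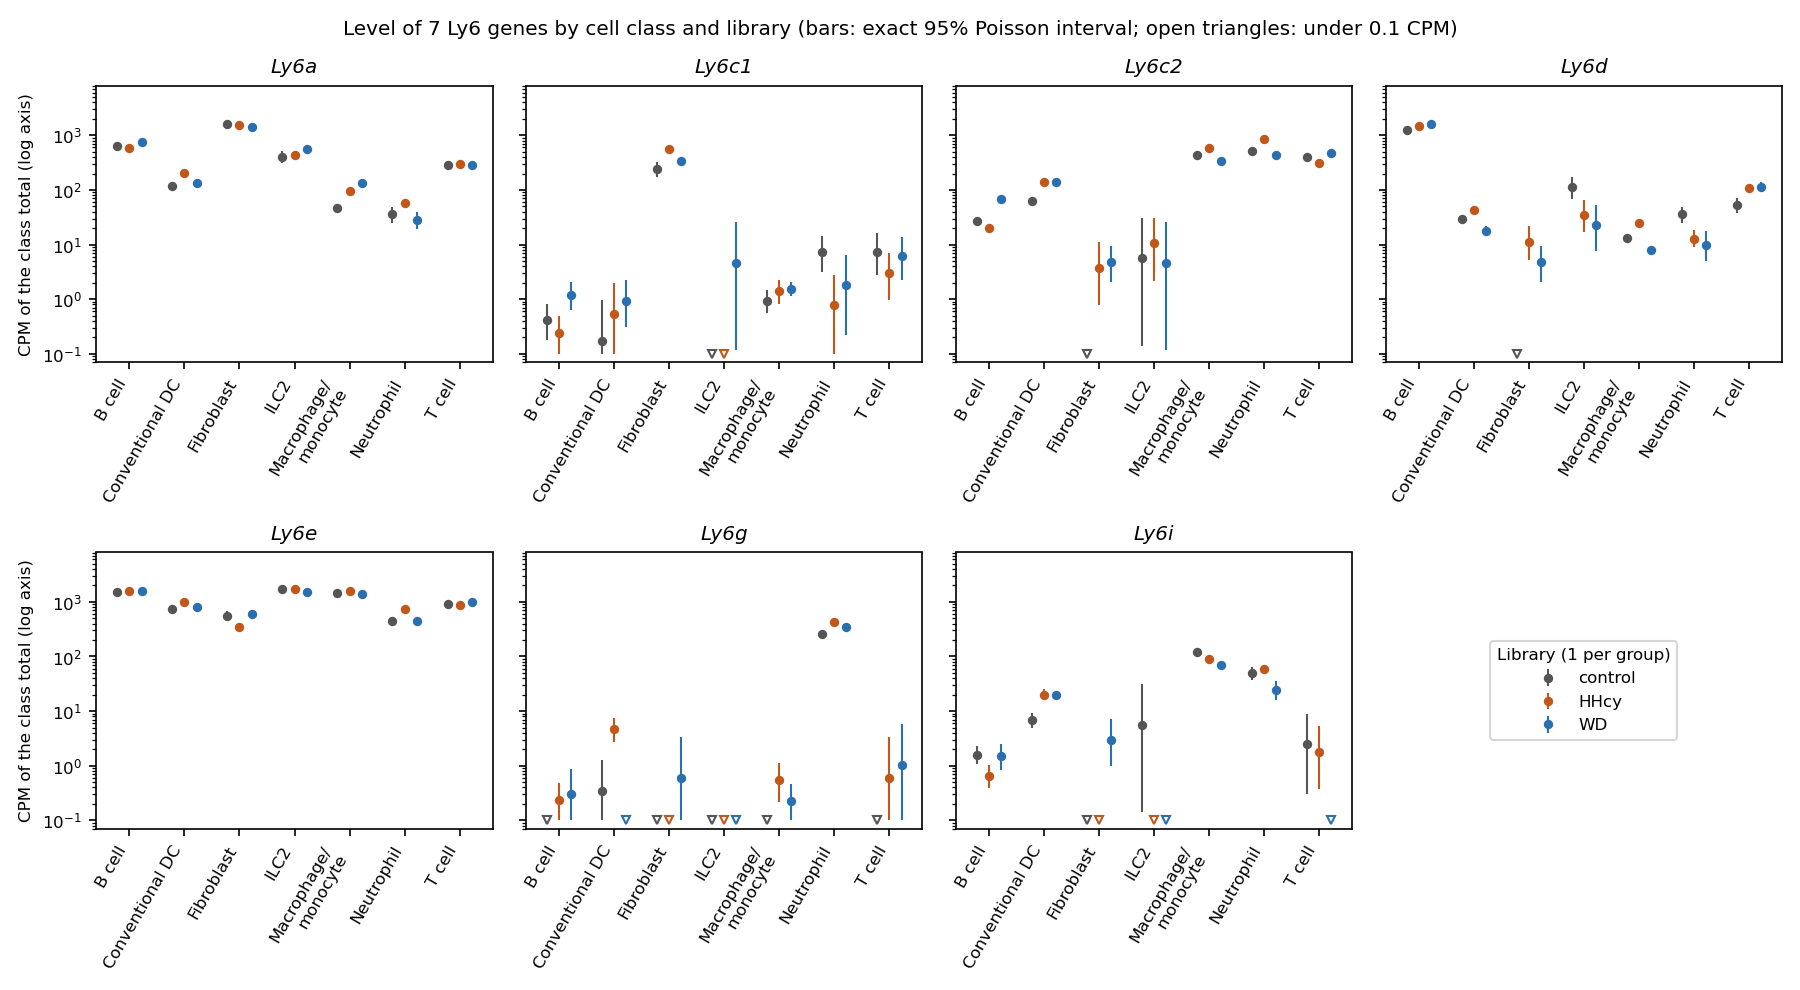
Level of each member (CPM, log axis) in the 7 classes with at least 20 cells in every library, 1 point per library (grey control, orange HHcy, blue WD) with exact Poisson 95% intervals; open triangles mark values under 0.1 CPM. Ly6g is high in neutrophils alone among these classes, Ly6d in B cells, Ly6c1 in fibroblasts, and Ly6e is at 344 CPM or more in every class shown.

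Among the members of the myeloid lineage, Ly6c2 was highest in classical monocyte-like cells, the short-lived blood monocytes that enter inflamed tissue. Its level there was 2620 (95% interval 2530 to 2710), 2400 (2330 to 2470) and 3020 (2940 to 3110) CPM, and 97.5%, 98.1% and 99.4% of the cells had at least 1 UMI. The 3 values lay above those of every other subset with at least 20 cells in each library. In non-classical monocyte-like cells, which patrol vessel walls, it stood at 499, 564 and 378 CPM. Foamy-like macrophages, named from markers of the lipid-laden cells of plaque, had 98.2, 97.9 and 126 CPM, and resident-like macrophages had 10.9, 26.6 and 8.5 CPM. Ly6c2 therefore stepped down from classical monocytes to resident macrophages in each of the 3 libraries. Fibroblasts, which should lack Ly6c2, had a UMI in 0 of 30, 3 of 85 and 7 of 173 cells (0%, 3.53% and 4.05%; median depth 5721.5, 6598 and 8097 UMIs per cell, against 8188, 12578 and 10349 in classical monocyte-like cells).

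Over the whole class of macrophages and monocytes, Ly6c2 was at 433, 580 and 343 CPM. The WD level was lower than the HHcy-labelled level by 0.76 on the log2 scale, and when both libraries were given the same mix of sub-clusters the log2 difference was −0.07. The number of cells in each subset differed between libraries: 157, 157 and 155 classical monocyte-like cells stood beside 390, 210 and 1071 foamy-like ones.

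Neutrophils also held Ly6c2, at 517 (476 to 562), 866 (830 to 903) and 439 (401 to 480) CPM. The value of the library labelled HHcy was the high one, and the other 2 lay close together. The gap was widest in cluster 8 (led by Retnlg, G0s2 and Acod1), with 115, 339 and 212 cells and 177, 784 and 277 CPM. In cluster 23, whose leading genes Ngp, Ltf and Camp encode granule proteins made by immature neutrophils, the level was 1000, 1180 and 1000 CPM.

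Ly6c2 was not confined to myeloid cells. T cells had 393, 317 and 477 CPM. Plasma cells, the antibody-secreting end of the B lineage, had 931, 2690 and 2490 CPM over 16, 68 and 16 cells, and held 31.1% of all Ly6c2 UMIs of the library labelled HHcy with 1.05% of its cells. Plasmacytoid dendritic cells, the specialised producers of type I interferon, had 1220, 3160 and 2500 CPM over 3, 42 and 6 cells. Both classes are too small in the control and WD libraries for the order of these levels to be read. In the library labelled HHcy both levels were above that of its classical monocyte-like cells.

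Ly6i was highest in non-classical monocyte-like cells, where Ly6c2 was lower than in classical ones. Its level there was 355 (339 to 371), 306 (285 to 327) and 356 (338 to 375) CPM, with a UMI in 70.6%, 67.0% and 67.6% of cells. Control and WD were level with each other and the HHcy-labelled value was slightly under both. Classical monocyte-like cells had 67.7, 63.0 and 77.6 CPM, foamy-like macrophages 13.9, 20.9 and 14.9 CPM, and resident-like macrophages 5.01, 0.951 and 3.84 CPM. B cells, where the gene should be silent, had a UMI in 1.23%, 0.517% and 1.22% of cells at median depths of 7358, 6400 and 6641.5 UMIs, against 7068, 8220 and 6466 in non-classical monocyte-like cells. Over the whole macrophage and monocyte class Ly6i was lower in WD than in control, at 69.8 against 120 CPM (log2 −0.78, 95% interval −0.87 to −0.70), and with the same sub-cluster mix that difference was −0.06. The sub-cluster led by Prg4 and Alox15, genes of cavity macrophages, left unnamed, had 61.7, 18.0 and 16.5 CPM of Ly6i, the control value standing above the other 2.

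Ly6g was the most restricted member. Neutrophils, the granulocytes whose identity it is used to define, held 98.6%, 96.9% and 97.0% of its UMIs. Its level was 261 (231 to 293), 429 (404 to 455) and 347 (313 to 383) CPM, with a UMI in 38.6%, 48.6% and 37.9% of neutrophils. No UMI was found in 2119 control macrophages and monocytes, where 3 UMIs would be 0.156 CPM, and 0.246% to 0.519% of those cells had one in the other 2 libraries. Control was lowest and the library labelled HHcy highest over the class, but the order was not the same in each cluster. Cluster 23 had 502, 603 and 906 CPM, with WD highest, and cluster 8 had 145, 385 and 246 CPM. Ly6g in neutrophils was 1.65-fold higher in the library labelled HHcy than in control (log2 0.72, 0.53 to 0.91), and 0.33 on the log2 scale when cells with markers of several lineages were kept.

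**Figure D2:**
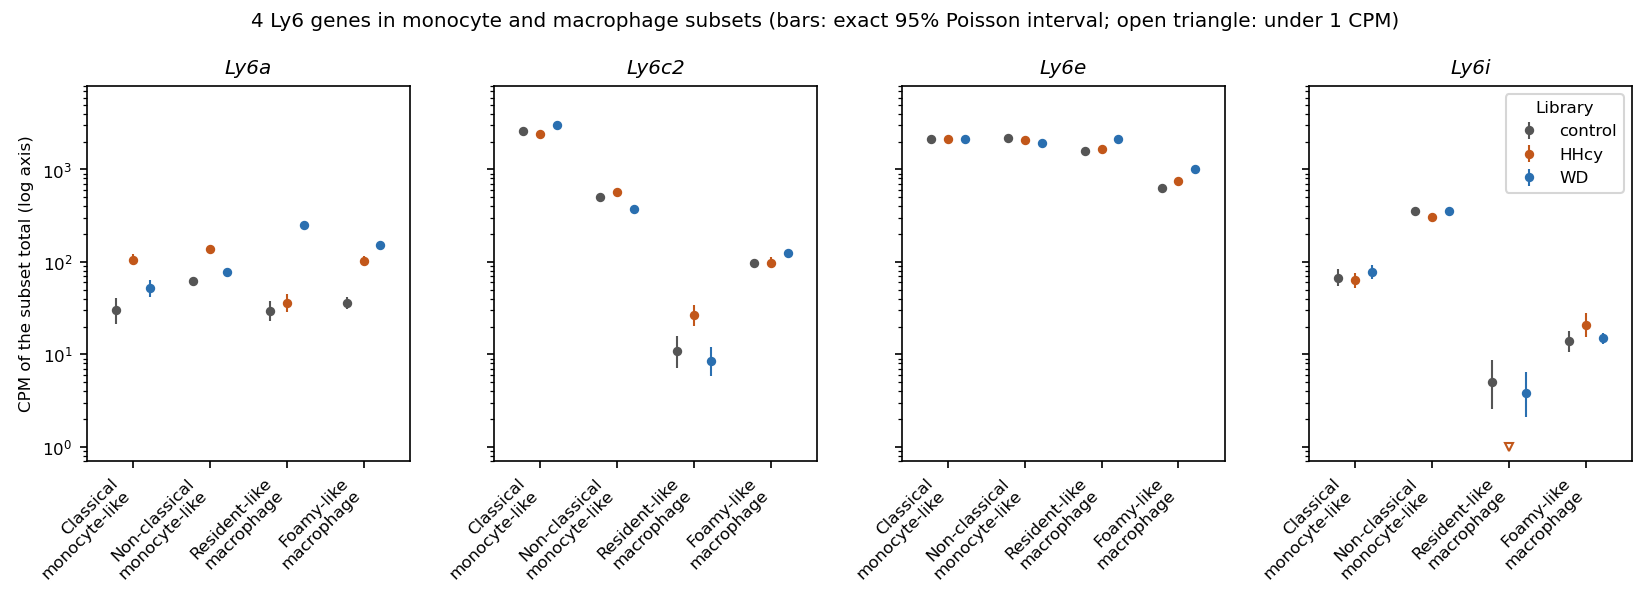
Levels of Ly6a, Ly6c2, Ly6e and Ly6i (CPM, log axis) in the classical monocyte-like, non-classical monocyte-like, resident-like and foamy-like subsets, 1 point per library with exact Poisson 95% intervals; an open triangle marks a value under 1 CPM. Ly6c2 is highest in classical monocyte-like cells, Ly6i in non-classical monocyte-like cells, and Ly6a in WD stands highest in resident-like and foamy-like macrophages.

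Of the lymphoid members, Ly6d was the B cell gene. B cells held 91.8%, 86.4% and 90.4% of its UMIs, and its level in them was 1230 (1210 to 1240), 1470 (1450 to 1480) and 1620 (1600 to 1650) CPM, with a UMI in 94.8%, 96.7% and 96.4% of cells. Immature B-like cells had the highest level of the B subsets, 3280, 4090 and 3940 CPM, and naive follicular B-like (1020, 1370 and 1190) and B1-like cells (1090, 1390 and 1360) lay together well below. The control library was the lowest of the 3 in each of these subsets, by less than 1.5-fold. Plasmacytoid dendritic cells, which Ly6d also marks in their development, had 1030, 3420 and 1520 CPM over 3, 42 and 6 cells.

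Macrophages and monocytes had Ly6d at 13.4, 25.1 and 7.94 CPM, which is 1.09%, 1.71% and 0.490% of the B cell level. The 10 B cell markers stood in these cells at medians of 1.59%, 1.87% and 1.04% of their own B cell levels, and Ly6d lay inside the range of those markers in every library. In T cells Ly6d was at 53.3, 110 and 115 CPM, with 10 cells holding 93.0%, 85.2% and 95.5% of its UMIs. Both treated libraries were higher by CPM, but with each cell thinned to 1000 UMIs they were not, at log2 −0.04 for the HHcy-labelled library and −1.39 for WD against control. No change of Ly6d in T cells can be read from these counts.

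Ly6a, the gene of Sca-1, was also a B cell transcript in these aortas: B cells held 76.1%, 61.9% and 41.7% of its UMIs. Its B cell level was 644 (633 to 656), 581 (573 to 590) and 745 (728 to 762) CPM. Unlike for Ly6d, immature B-like cells were the lowest of these 3 subsets: the level was 783, 804 and 957 CPM in B1-like cells, the innate-like B cells of body cavities, 466, 504 and 570 CPM in naive follicular B-like cells, and 98.2, 85.2 and 152 CPM in immature B-like cells. The libraries' ranges did not overlap between the 3 subsets. Among other lymphocytes ILC2 had 402, 440 and 552 CPM, regulatory T-like cells 377, 579 and 519 CPM, and T cells together 281, 303 and 282 CPM. Plasma cells held 2.61%, 15.3% and 2.48% of all Ly6a UMIs, with 0.296%, 1.05% and 0.3% of the cells. Plasmacytoid dendritic cells held 0.0312%, 3.71% and 0.342%, with 0.0554%, 0.651% and 0.113% of the cells.

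**Figure D3:**
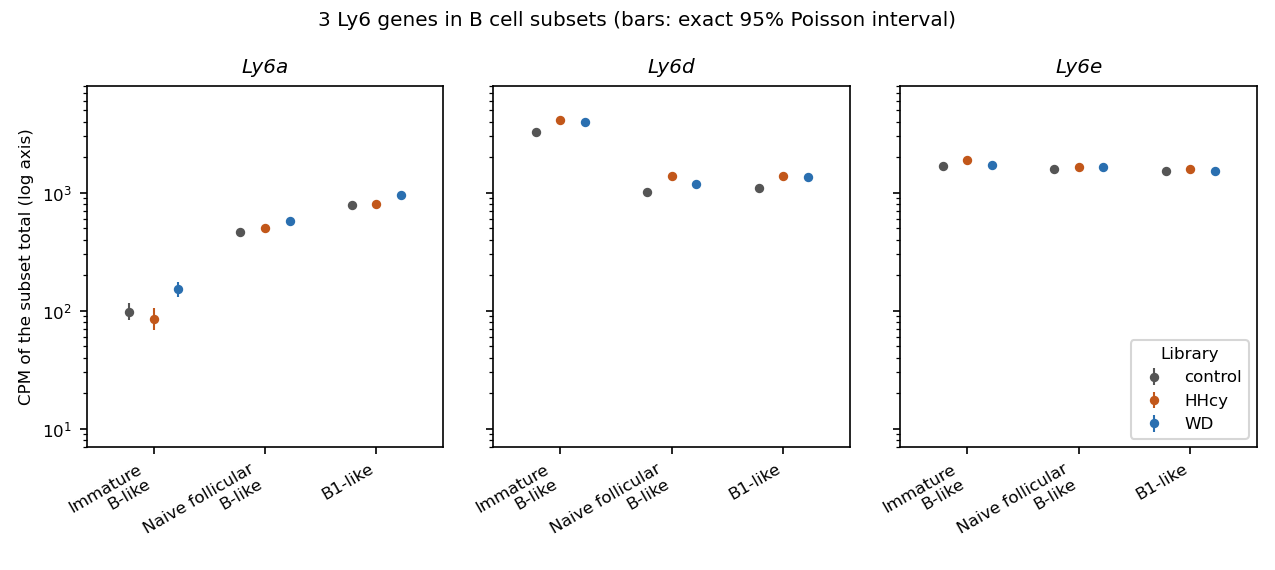
Levels of Ly6a, Ly6d and Ly6e (CPM, log axis) in immature, naive follicular and B1-like B cells, 1 point per library with exact Poisson 95% intervals. Ly6a is lowest in immature B-like cells and highest in B1-like cells, and Ly6d is highest in immature B-like cells, in all 3 libraries.

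Ly6c2 was low in B cells, at 27.1, 20.4 and 68.4 CPM, and the WD excess sat in few cells. Of the 682 Ly6c2 UMIs in WD B cells, 54.0% came from 10 cells and 159 from 1 of them, and without the 10 highest cells of each library the levels were 19.3, 15.1 and 32.2 CPM. Leaving out a fixed 10 cells takes a larger share of a smaller group, and WD had the fewest B cells. B1-like cells had 14.0, 28.2 and 60.1 CPM, and 10 cells held 86.0% of the WD UMIs. Naive follicular B-like cells had 57.9, 16.3 and 70.4 CPM, the library labelled HHcy being the low one.

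Ly6a and Ly6c1 were the stromal members. Fibroblasts, the main Sca-1 positive cells of the adventitia, had Ly6a at 1640 (1460 to 1830), 1520 (1440 to 1610) and 1440 (1390 to 1500) CPM, the highest of the 7 classes with 20 or more cells per library. The 3 libraries were close, and the control and HHcy-labelled intervals overlapped. Endothelial cells had 1260, 1020 and 2440 CPM, and mast cells, which store histamine, had 1640, 1910 and 3640 CPM over 34, 24 and 12 cells.

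Ly6c1 was far higher in stromal cells than elsewhere. Its fibroblast level was 243 (176 to 326), 558 (507 to 612) and 333 (306 to 362) CPM, with a UMI in 23.3%, 37.6% and 33.5% of fibroblasts, and its endothelial level was 1290, 441 and 1260 CPM. In the other 6 of the 7 classes it did not pass 7.44 CPM. Macrophages and monocytes, which hold abundant Ly6c2 and could receive its reads, had Ly6c1 at 0.936, 1.40 and 1.55 CPM. In fibroblasts the library labelled HHcy was 2.30-fold above control (log2 1.20, 0.75 to 1.68), from 44 control UMIs in 7 cells. The difference kept that direction and size class in 8 of 8 alternative settings.

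Ly6e, by contrast, was present in every class. B cells had 1510, 1600 and 1570 CPM, macrophages and monocytes 1440, 1550 and 1420 CPM, ILC2 1710, 1720 and 1510 CPM, T cells 920, 883 and 1010 CPM, and conventional dendritic cells 741, 1000 and 798 CPM. The first 3 classes overlapped in their ranges, and the lowest level of a named subset was in mature dendritic-like cells, at 119, 123 and 170 CPM. Within the macrophage class it was at 2150, 2150 and 2120 CPM in classical monocyte-like cells, 2210, 2080 and 1940 CPM in non-classical ones, 1590, 1650 and 2130 CPM in resident-like macrophages and 631, 743 and 1010 CPM in foamy-like macrophages. WD was thus highest in both macrophage subsets and in neither monocyte subset. In neutrophils the level was 452 (413 to 493), 733 (700 to 767) and 449 (410 to 490) CPM, and in fibroblasts 557 (453 to 676), 344 (304 to 387) and 591 (555 to 629) CPM. The library labelled HHcy was the high one in neutrophils and the low one in fibroblasts. With 30 control fibroblasts, the low value in that class (log2 −0.70, −1.03 to −0.35) rests on 101 control UMIs.

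Ly6a in macrophages and monocytes had the largest ratio of WD to control of the pairs of a member and a class that had enough UMIs. Over the class it stood at 47.2 (44.1 to 50.3), 97.3 (92.0 to 103) and 136 (132 to 140) CPM, from 907, 1251 and 4300 UMIs. The 3 intervals were apart, with control lowest and WD highest. Against control, the library labelled HHcy stood at log2 1.04 (0.92 to 1.17) and WD at 1.53 (1.43 to 1.63). Over 9 alternative settings the first ranged from 0.63 to 1.08 and the second from 1.18 to 1.74. The share of cells with a UMI was 17.1%, 23.4% and 31.8% at median depths of 7382, 8183.5 and 9121 UMIs, and 4.04%, 5.42% and 9.66% with each cell thinned to 1000 UMIs. Neutrophils had the lowest Ly6a level of the 7 classes with at least 20 cells per library. After thinning, 2.11%, 6.81% and 4.53% of them had a UMI, from median depths of 4594, 5008 and 3918 UMIs. The macrophage share was above the neutrophil share in control and in WD and below it in the library labelled HHcy. In control that order rests on 39 neutrophil UMIs of Ly6a, at 35.6 CPM against 47.2 CPM in macrophages and monocytes. In control and in the library labelled HHcy this share alone is not read as above background. Whether neutrophils hold only background was not tested. Neutrophil Ly6a in the library labelled HHcy was 9.79% of the B cell level, where the 10 B cell markers reached at most 5.39%.

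The treated libraries had their highest Ly6a levels in different subsets. Resident-like macrophages, the self-renewing cells of the adventitia, had 29.7 (23.2 to 37.4), 36.1 (28.5 to 45.2) and 248 (232 to 265) CPM, so that WD stood 8.37-fold over control (log2 3.07, 2.72 to 3.44) and the other 2 intervals overlapped. After thinning, 2.29%, 3.63% and 11.8% of resident-like cells had a UMI. Foamy-like macrophages had 36.2 (30.9 to 42.1), 103 (90 to 117) and 151 (144 to 157) CPM. Classical monocyte-like cells had 30 (21.3 to 41.0), 106 (92.0 to 121) and 52.3 (42.2 to 64.0) CPM and non-classical ones 61.6 (55.1 to 68.7), 139 (126 to 154) and 77.6 (69.2 to 86.6) CPM. In both monocyte subsets the library labelled HHcy was highest, and in both macrophage subsets WD was.

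How many cells carry these levels differed. In the library labelled HHcy 10 cells held 78.0% of the Ly6a UMIs of foamy-like macrophages, 57.1% of those of classical and 55.9% of those of non-classical monocyte-like cells. In WD 10 cells held 37.7% in resident-like and 19.3% in foamy-like macrophages. Without the 10 highest cells of each library and subset, resident-like macrophages had 10.9, 18.7 and 160 CPM and foamy-like ones 14.1, 24.8 and 123 CPM, while non-classical monocyte-like cells had 49.7, 65.6 and 58.8 CPM. Since 10 cells are a larger share of the smaller groups, these values show only that the WD level in both macrophage subsets does not rest on 10 cells, and the ratios between libraries are not read from them. Within the foamy-like cells the sub-cluster led by Cd72, Ms4a7 and Trem2 had 51.0, 74.5 and 198 CPM and held 40.6% of all WD macrophage Ly6a UMIs. The foamy-like sub-cluster led by Gpnmb, Fabp5 and Spp1 had 22.8, 219 and 64.4 CPM, with only 39 cells in the library labelled HHcy. WD was not the highest library there, so the order of the foamy-like subset did not hold in each of its sub-clusters. The Cd72 sub-cluster held most cells of the subset (228, 119 and 788) and had none of Gpnmb, Fabp5 and Spp1 among its 10 leading genes.

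Set beside the stromal level, macrophage Ly6a was 2.88%, 6.40% and 9.44% of the fibroblast CPM. The control percentage rests on 30 fibroblasts, whose Ly6a fell to 82.2 CPM without their 10 highest cells. The 10 fibroblast markers were lower on the same measure: they ran from 0.0333% to 2.72% in control, from 0.0893% to 2.11% in WD and from 0.0243% to 1.30% in the HHcy-labelled library, and Dcn, an abundant matrix proteoglycan, stood at 0.0394%, 0.0633% and 0.113%. In WD and the library labelled HHcy, Ly6a stood above all 10 fibroblast markers. In control its 2.88% (2.52 to 3.30) was not separated from the 2.72% (2.21 to 3.37) of Pi16, a marker of adventitial fibroblasts. The median of the 10 markers was 0.0672%, 0.0643% and 0.136%. In neutrophils Pi16 was the highest of the 10, at 20.7%, 7.22% and 15.4% of its fibroblast level, beside medians of 0.0467%, 0.0814% and 0.22%. Whether Pi16 in myeloid cells comes from fibroblast RNA was not tested. The 10 fibroblast markers summed to 150, 154 and 181 CPM in macrophages and monocytes, with none of them at 0. Among the 440, 271 and 398 macrophages and monocytes without a single UMI of 26 stromal markers, Ly6a was at 52.7, 64.3 and 183 CPM. These cells were shallower than the class, with median depths of 3567, 4070 and 4645 UMIs against 7382, 8183.5 and 9121. The WD level there was above that of the whole class, while the HHcy-labelled level was closer to control. By subset, the cells without a stromal UMI had 11.1, 17.8 and 203 CPM in resident-like macrophages (114, 78 and 100 cells) and 51.5, 47.7 and 243 CPM in foamy-like ones (66, 41 and 145 cells). Classical monocyte-like cells without one had 47.2, 60.6 and 12.9 CPM (35, 23 and 18 cells) and non-classical ones 35.1, 132 and 86.7 CPM (105, 34 and 44 cells). WD stayed highest in both macrophage subsets, whereas the HHcy-labelled level was not above control in foamy-like cells and WD was below control in classical monocyte-like ones, on 12, 13 and 2 UMIs. B cells held the most Ly6a UMIs of any class in each library, and the macrophage level was 7.32%, 16.7% and 18.3% of theirs. That was above all 10 B cell markers, which reached at most 5.16%, 5.47% and 4.60%. The B cell markers summed to 125, 156 and 85.8 CPM in macrophages and monocytes, lowest in WD. Without any UMI of the B and plasma cell markers, macrophages and monocytes had 39.9, 54.5 and 131 CPM (277, 121 and 364 cells). They too were shallow, at median depths of 3831, 2639 and 3762.5 UMIs. The resident-like macrophages among them (73, 31 and 69 cells) held 3, 4 and 31 Ly6a UMIs, which in WD is 103 CPM against 248 CPM in all resident-like cells.

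**Figure D4:**
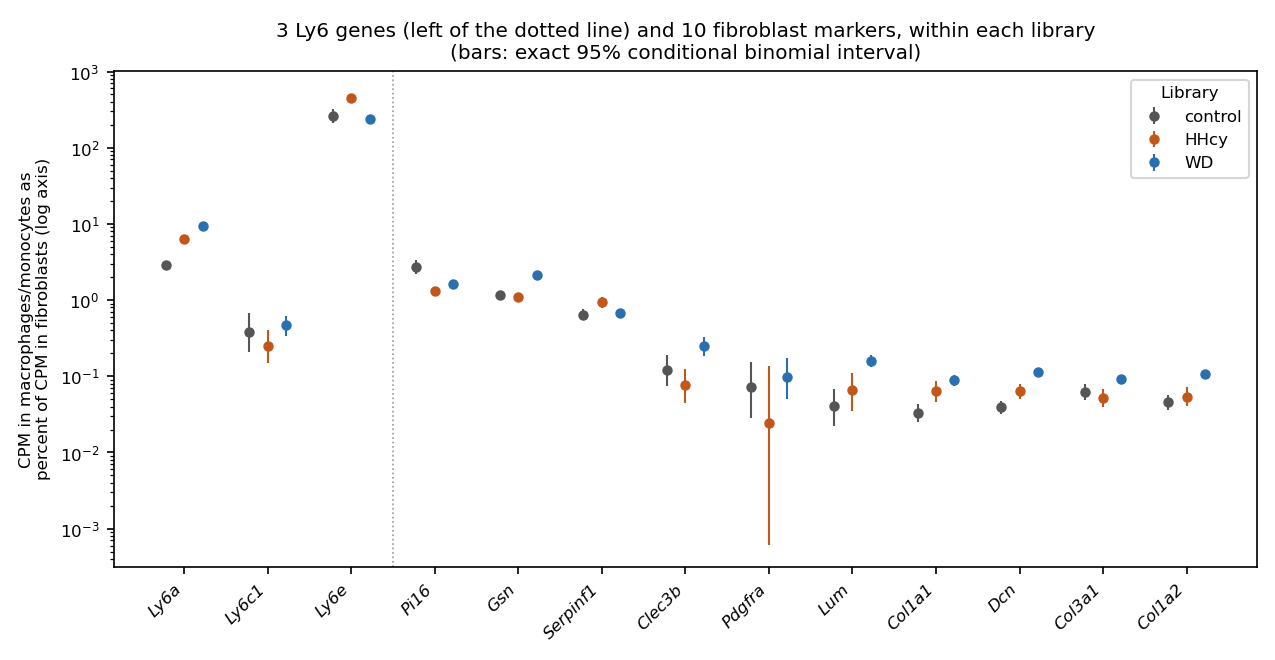
Level in macrophages and monocytes as a percentage of the level in fibroblasts, for Ly6a, Ly6c1, Ly6e and 10 fibroblast markers, in each library, with 95% intervals for counting error (log axis). Ly6a, at 2.88%, 6.40% and 9.44%, lies above every fibroblast marker in the HHcy-labelled and WD libraries, and in control its interval overlaps that of Pi16 (2.72%).

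Across the 7 classes there were 49 pairs of a member and a class, and a pair was counted as higher or lower when the ratio of CPM passed 1.5-fold with at least 100 UMIs over both libraries. For the library labelled HHcy against control 28 pairs could be counted, of which 11 were higher and 1 lower, while 9.18% of all pairs of a gene and a class were past the fold in either direction. For WD against control 5 of 26 were higher and 3 lower (all genes 7.49%), and for WD against the library labelled HHcy 3 of 28 were higher and 9 lower (all genes 8.42%). The first 2 contrasts share the control library. The direction held in every alternative setting for 10 of 12, 5 of 8 and 8 of 12 of these pairs, and the 1.5-fold limit for 4, 1 and 3. Fibroblast Ly6c1 (HHcy-labelled against control) is counted among these although the setting without the highest cells gave no ratio for it.

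In macrophages and monocytes 2 of 5 members were higher in the library labelled HHcy, Ly6a and Ly6d, and none lower, against 1.98% of all genes higher and 2.44% lower. In WD Ly6a was higher and Ly6d and Ly6i lower, against 2.23% and 3.20% of genes. The lower Ly6d kept the fold in 3 of 9 alternative settings and was 0.57 on the log2 scale with doublets kept, and the summed B cell markers were lowest in WD as well, at 125, 156 and 85.8 CPM. Their part in the Ly6d value was not tested. In neutrophils 4 of 5 members, Ly6a, Ly6c2, Ly6e and Ly6g, were higher in the library labelled HHcy, with log2 differences of 0.68, 0.74, 0.70 and 0.72, where 5.60% of genes were higher and 17.3% lower. All genes in that comparison had a median of −0.17, so relative to it the 4 members stood a little further up, and no member changed sign under median-of-ratios scaling. Ly6a kept the fold in 9 of 9 alternative settings, but it had the fewest UMIs of the 4 (145 and 39) and the widest interval (0.16 to 1.22). The other members kept the fold in 7 of 9 each: with doublets kept Ly6c2 was at 0.16, Ly6e at 0.40 and Ly6g at 0.33, and with the same sub-cluster mix Ly6e was at 0.31. None of 3 members passed the fold in WD neutrophils (5.97% of genes higher, 8.27% lower).

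Conventional dendritic cells, the antigen-presenting cells, had Ly6a, Ly6c2 and Ly6i higher in the library labelled HHcy, 3 of 5 members (3.64% of genes higher, 2.83% lower), and Ly6c2 and Ly6i higher and Ly6d lower in WD (3.91% and 4.17%). The lower Ly6d kept the fold in 3 of 9 alternative settings and was 1.26 on the log2 scale with up to 20% mitochondrial UMIs allowed and 0.35 at resolution 2. Ly6c2 there was at 61.6, 139 and 139 CPM and Ly6i at 6.90, 20 and 19.4 CPM, control being low for both. In cDC2-like cells, the dendritic subset closest to monocytes in its genes, Ly6c2 was at 92.1, 240 and 227 CPM. In B cells 0 of 4 members passed the fold in the library labelled HHcy (3.30% of genes higher, 5.89% lower) and 1, Ly6c2, was higher in WD (2.15% and 1.08%). In T cells Ly6d alone of 4 members was higher in each (HHcy-labelled 3.16% of genes higher and 5.60% lower, WD 3.93% and 3.21%). Fibroblasts had Ly6c1 higher and Ly6e lower in the library labelled HHcy (15.7% and 9.97% of genes) and 0 of 3 members past the fold in WD (12.5% and 9.87%). The shares of all genes past the fold were the largest of the 7 classes in fibroblasts, of which control had 30.

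**Figure D5:**
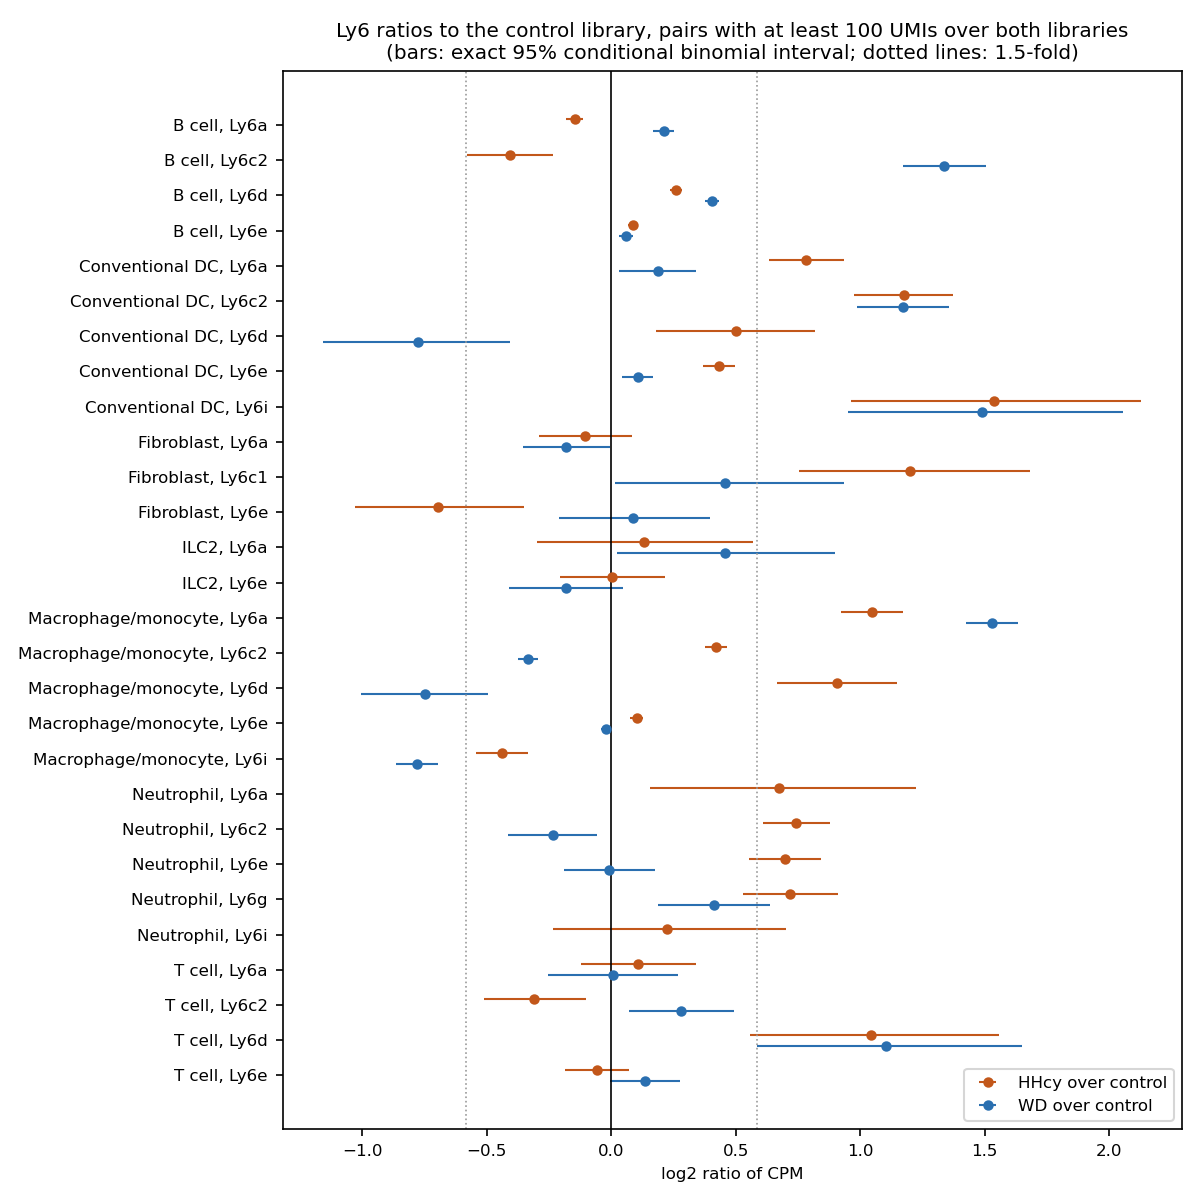
Log2 ratio of each member's CPM to control, by class, for the library labelled HHcy and for WD, with 95% intervals for counting error and lines at 1.5-fold. Ly6a in macrophages and monocytes lies past the line in both, at 1.04 and 1.53.

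Within the monocyte and macrophage subsets, Ly6a was the member that passed the fold most often. It did so in classical monocyte-like cells in both treated libraries, 1 of 4 members each (HHcy-labelled 4.93% of genes higher and 6.74% lower, WD 3.73% and 7.33%). In non-classical cells it did so in the library labelled HHcy (1.80% and 2.22%), and in WD only Ly6d passed, lower (1.96% and 2.54%). Foamy-like macrophages had Ly6a and Ly6i higher in the library labelled HHcy (3.15% and 4.16%), and Ly6a and Ly6e higher and Ly6d lower in WD (2.85% and 2.46%). Resident-like macrophages had Ly6d higher in the library labelled HHcy, 1 of 3 members (2.5% and 3.07%), and Ly6a higher in WD, 1 of 2 (2.80% and 2.16%). That Ly6d order was reversed in resident-like cells without a B or plasma cell marker UMI. Control had 16.1 CPM and the HHcy-labelled library 7.52 CPM there, on 4 and 1 UMIs. In cells without a stromal marker UMI the levels were 22.3 and 15.2 CPM, on 10 and 6 UMIs.

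Since Ly6a and Ly6e are interferon-inducible, a list of 30 interferon-stimulated genes without Ly6 members was described in the same cells (29 are in the tables). In WD resident-like macrophages 10 of 26 counted genes were higher and none lower, with a median log2 difference of 0.48 against −0.04 for all genes. Ifi27l2a, a small interferon-induced protein of mitochondria, was at 2420, 2520 and 4130 CPM there, and Bst2, which tethers budding viruses, at 318, 418 and 570 CPM. In WD foamy-like macrophages 22 of 29 were higher (median 0.84, all genes −0.03), and in the library labelled HHcy 13 of 27 (median 0.55). Classical monocyte-like cells of the library labelled HHcy had 0 of 27 past the fold and a median of −0.12, and non-classical ones 1 higher and 3 lower of 28, although Ly6a was higher in both. Neutrophils of that library had 14 of 23 higher (median 0.75, with 5.60% of all genes higher), including Rsad2, an antiviral enzyme, at 166, 423 and 412 CPM. In WD B cells 17 of 27 were higher (median 0.70, all genes 0.02), while Ly6a and Ly6e there were within 1.5-fold of control. Ly6a and part of the interferon list thus both passed 1.5-fold in WD resident-like and foamy-like macrophages, and in HHcy-labelled foamy-like macrophages and neutrophils. In both HHcy-labelled monocyte subsets Ly6a passed it and the list mostly did not. In WD B cells much of the list passed it, and Ly6a was higher by less, at log2 0.21 (0.17 to 0.25). Whether these differences between cell types exceed replicate spread was not tested.

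Of the 10 interferon receptors and signal transducers, such as Ifngr1 (268, 283 and 233 CPM) and Jak1 (156, 177 and 167 CPM), 0 passed the fold in macrophages and monocytes of either treated library. Of the genes that build and attach the GPI anchor, 0 of 21 and 0 of 23 did in that class, with medians of 0.06 and −0.02, and Dpm1, a subunit of the mannosyl donor enzyme, was at 69.2, 79.1 and 72.2 CPM. Of all genes in the class 1.98% were higher and 2.44% lower in the library labelled HHcy, and 2.23% and 3.20% in WD. Counts of 0 in short lists lie near those shares. Of 29 other genes of the Ly6 and uPAR family, Plaur alone could be counted in these cells. Plaur encodes the urokinase receptor and was at 268, 218 and 188 CPM, highest in control. Of 16 dissociation and heat shock genes 14 could be counted in neutrophils of the library labelled HHcy, and 7 were lower than in control (median −0.57), beside the higher Ly6 members there. Of all genes 17.3% were lower in those neutrophils, with a median of −0.17. In classical monocyte-like cells of that library, where Ly6a was higher, 7 of 14 were lower (median −0.58), against 6.74% of all genes. Their part in the result was not tested.

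Genes whose levels ran most like each member were sought over 80 sums of a class or subset in 1 library, among 9269 genes, by Pearson's r of log2(CPM + 10). The sums share libraries and cell types, so r is a description. Ly6g ran with Ankrd22 (0.98), Stfa2l1 (0.97) and Chil1 (0.97), and Ly6c1 with Tgfb1i1, Pdgfd and Sulf1 (each 0.96). Ly6i ran with Treml4 (0.92), Adgre4 (0.90) and Apoc2 (0.88), and Ly6d with Iglc3 (0.91), Pou2af1 (0.89) and Cd79b (0.89), the last being a chain of the B cell receptor. The 3 widely expressed members had no such close partner: the highest r was 0.65 for Ly6a (Mast4), 0.68 for Ly6c2 (Zbp1) and 0.65 for Ly6e (Serinc3). Among the members themselves the highest were 0.47 for Ly6c2 with Ly6i, 0.41 for Ly6a with Ly6c1 and 0.41 for Ly6a with Ly6d, so neighbours on the chromosome did not share 1 pattern over cell types.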

How the data were processed

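The deposited files hold raw UMI counts per gene and cell barcode, 1 library per group, made by the authors with Chromium 3′ v3 chemistry per the labels' protocols. Cell Ranger 4.0.0 wrote them per the file headers, while the submitters' processing notes name Cell Ranger 2.2.0 and mm10; the gene annotation is not given in the sources used here. Barcodes with at least 200 genes and at most 10% mitochondrial UMIs were kept, and cells with markers of several lineages (10.3%, 20.9% and 20.6%) were removed as doublets. Cells were clustered with leidenalg 0.10.2 (30 components, 20 neighbours, resolution 1) on 2000 variable genes, Ly6 genes left out. Clusters were named from marker lists, with at least 3 markers. The doublet limits and the rule that removes a name when 3 of 30 leading genes belong to another lineage were set after the clusters were seen. Counts were summed by class and library. Intervals are exact 95% Poisson, Clopper-Pearson or conditional binomial, computed with scipy 1.17.1 and checked on simulated data. The members and lists were chosen with earlier results of these data known. Named genes are all members, the 4 most abundant of each list (examples taken from these) and the 3 genes most like each member. No column from outside the series was used (0 found).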

Additional observations from a re-analysis of the deposited data

Results flagged for a closer look

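Ly6e, Ly6d and Ly6i each passed 1.5-fold in opposite directions in different cell classes of the same libraries, and the difference between the classes was not tested in any of these cases. Ly6e in the library labelled HHcy against control was at log2 0.70 in neutrophils and −0.70 in fibroblasts. Ly6d in WD against control was at 1.10 in T cells (1.105), −0.78 in conventional dendritic cells and −0.75 in macrophages and monocytes. Ly6i in WD against control was at 1.49 in conventional dendritic cells and −0.78 in macrophages and monocytes. All 3 Ly6d values changed sign in an alternative setting (T cells −1.39 with thinned cells, dendritic cells 1.26 with up to 20% mitochondrial UMIs, macrophages and monocytes 0.57 with doublets kept), and no change of Ly6d in T cells is read from these counts.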

How the results depend on the processing

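No paired analysis was possible because each group is 1 library. Over 736 values of a member, class and setting, 461 stayed within their counting interval and 68 moved by over 1.5 times. The 11 sign changes named below are those of pairs past 1.5-fold in the main setting. Pairs within the fold changed sign too and were not counted. For example, Ly6a in fibroblasts (HHcy-labelled against control) went from −0.107 to 3.17 without the 10 highest cells. The cause was not tested. Median-of-ratios scaling moved none by over 1.5 times. The setting without the 10 cells of each library and class with most UMIs of a gene was chosen after seeing the data; a fixed 10 cells is a larger share of a smaller group, so its ratios shift by construction. The count lower in the library labelled HHcy (1 pair) was 0 with doublets kept and without the 10 highest cells, 2 with cells named by their own markers and with the same sub-cluster mix, 3 with the mean over cells and 4 at 20 UMIs. The count higher in WD than in control (5) was 9 with doublets kept, 8 with thinned cells and 10 without the highest cells, and the count lower (3) was 0 with the same mix, 1 with the mean over cells and 6 at 20 UMIs. The count higher in WD than in the library labelled HHcy (3) was 6 with thinned cells and 5 without the highest cells. Macrophage Ly6a as a percentage of the fibroblast level was 4.44 in control and 11.7 in WD with doublets kept, and 4.23 (HHcy-labelled) and 12.7 (WD) in macrophages without a stromal UMI. Signs changed for Ly6d in dendritic cells (WD against control 1.26 at up to 20% mitochondrial UMIs, 0.35 at resolution 2; against the HHcy-labelled library 0.24 at 20%), for Ly6d in macrophages (WD against control 0.57 with doublets kept, 0.028 with the same mix), and for Ly6d in thinned T cells (HHcy-labelled −0.036, WD −1.39). They also changed for Ly6e in fibroblasts (0.22 without the highest cells, 10 of 30 in control) and, in WD against the HHcy-labelled library with doublets kept, for Ly6a (0.055) and Ly6e (0.014) in neutrophils and Ly6c2 in T cells (−0.55).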
